A study of Mus musculus with 20 samples.

Results

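The siRNA siMyolinc.2 was set against a scramble siRNA in C2C12 cells on day 2 of differentiation, with all 20193 genes of the deposited day-2 sheet as members and 4 of the 20 array samples of the series, 2 arrays for each group. The comparison was chosen by its array labels alone, and the change of each gene was computed from the log2 values of those arrays. In the treated group the cells had been transfected with siMyolinc.2, and in the control group with the scramble siRNA (siScr), each at 10 nM with RNAiMax, and differentiation was started 24 h later in medium with 2% horse serum. The control cells were therefore transfected too, so both groups share the reagent and the presence of an siRNA. The same sheet holds 2 arrays each of cells given siMyolinc.1 and siMyolinc.3 in the same way. A second sheet holds the siMyolinc.2 cells beside untransfected cells at day 2 (Day_2), at day 1 (Day_1) and in growth medium (Undiff), 2 arrays each. All cells are of 1 mouse line, and the labels call the replicates biological without saying what separated them. The p-values below therefore measure the spread between these samples.

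C2C12 is an immortalised line of mouse myoblasts. When serum is lowered, the cells leave the cell cycle under the transcription factors MyoD and myogenin, switch on the contractile proteins of the sarcomere, and fuse into multinucleated myotubes. Myolinc, the RNA that the siRNAs are named for, is a long noncoding RNA transcribed beside the gene Filip1. An siRNA acts by guiding an Argonaute protein to RNA that pairs with it, and several siRNAs of different sequence against 1 RNA are used because each can also pair in part with other transcripts. The level of Myolinc itself is not analysed here, so the depth of knockdown that each siRNA reached is not given. Filip1, the neighbouring gene, had log2 levels of 5.82 and 5.93 on the siMyolinc.2 arrays, against 5.88 and 5.98 on the siScr arrays, a change of -0.05 ± 0.12 (SE) with an adjusted p of 0.955.

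With siMyolinc.2, muscle genes such as Tnnc1, Acta1 and Myog, mitotic genes such as Ccnb2, and genes of cholesterol synthesis such as Acat2 were lower than with siScr, and Havcr2, Atp1b1, Npr3 and Ppargc1a were among the genes that were higher. A gene is called here when limma's two-sided test, with 8 arrays in the fit and Benjamini-Hochberg adjustment over all 20193 genes, gave an adjusted p under 0.05. Called genes numbered 272, or 1.35% of those tested, of which 145 (0.718%) rose and 127 (0.629%) fell. A difference of 1 on the log2 scale is a 2-fold change, and 11 of the risen and 10 of the fallen genes passed it. The median absolute change of the called genes was 0.57 for rises and 0.61 for falls, and the smallest was 0.35 for rises and 0.37 for falls. All 272 had arrays that did not overlap between the groups, but this is weak evidence by itself, since 17.1% of all genes had both siMyolinc.2 arrays above both siScr arrays and 22.6% had them below. Each ± after a change or difference below is the SE from this fit, with 2 arrays per group. Counts at an unadjusted p under 0.05 are given for some lists. The share of all genes under that limit is not given, so these counts are not read as an excess. The median change of all genes was -0.01 and the median SE of a change was 0.09.

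**Figure D1:**
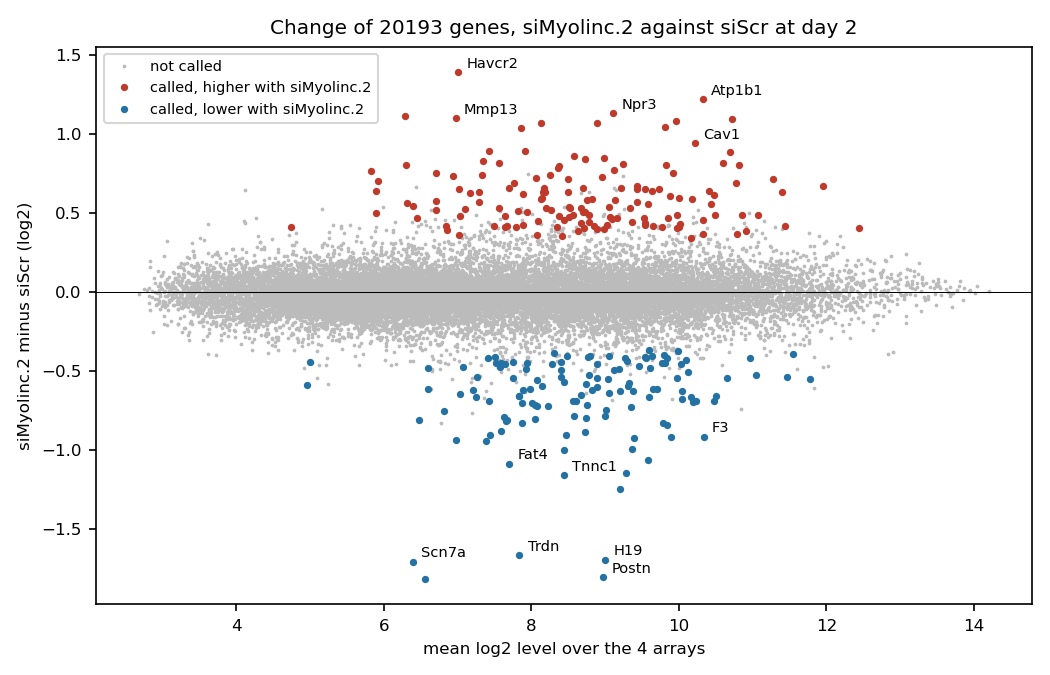
Each point is 1 of 20193 genes, with its mean log2 level over the 2 siMyolinc.2 and 2 siScr arrays on the horizontal axis and the change, siMyolinc.2 minus siScr in log2, on the vertical axis. The 145 genes called higher (red) and 127 called lower (blue) reach changes of 1.39 for Havcr2 and -1.80 for Postn, while most genes lie close to the median change of -0.01.

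Both pairs of replicate arrays correlated across genes with r of 0.998 for siMyolinc.2 and 0.997 for siScr. The median absolute difference between replicates was 0.07 for siMyolinc.2 and 0.10 for siScr. The siScr arrays differed from each other in the direction of the comparison. Of the 127 fallen genes, 108 (85%) were higher on siScr array 2 than on siScr array 1, with a median difference of 0.12, against 44.6% of all genes and a median of -0.02. Of the 145 risen genes 45 (31%) were higher on siScr array 2, with a median of -0.07. The siMyolinc.2 arrays leaned the same way but less. On siMyolinc.2 array 2, 80 of the fallen and 61 of the risen genes were higher than on array 1, against 9179 of all 20193. The part of these replicate differences in the calls was not tested. The number of calls was 247 without siScr array 1, 64 without siScr array 2, 47 without siMyolinc.2 array 1 and 36 without siMyolinc.2 array 2. Leaving out either siMyolinc.1 array, which enters only the estimate of the spread, gave 178. In total 28 genes, 19 risen and 9 fallen, were called whichever of the 4 arrays was left out. They include Havcr2, Atp1b1, Npr3, Ppargc1a, Cav1, Cav2, Rragd, Nr4a1, Cp, Jam2 and Car8 among the rises, and Postn, Gulp1, Fat4, F3, Vcam1, Ccnb2, Acat2 and Lss among the falls. Of the 272 called genes 0 changed direction in the 4 refits without 1 of the arrays compared. Arrays that do not overlap fix this outcome in advance, so it adds no support. With the 35556 probe clusters of the authors' series matrix tested in place of 1 cluster per gene, 21 clusters were called, and with the genes below the median level left out 518 genes were called. In the series matrix no member of the filament, mitosis, cholesterol or interferon lists described below was called. The median changes of these lists cannot differ there, since each cluster is fitted by itself on the same log2 values.

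Thick and thin filament genes, which encode the actins, myosins and troponins of the sarcomere, were the clearest muscle group among the falls. Of 29 measured genes 8 fell and none rose (1 was higher at an unadjusted p under 0.05), and the median change of the list was -0.19, against -0.01 for all genes. Tnnc1, the slow and cardiac troponin C that binds calcium on the thin filament, had levels of 7.90 and 7.82 with siMyolinc.2 and 8.76 and 9.28 with siScr. It fell by 1.16 ± 0.14 (SE, adjusted p = 0.00679), and the lower siScr array still lay clear of both siMyolinc.2 arrays. Acta1, the skeletal muscle actin, stood at 8.70 and 8.71 with siMyolinc.2 and at 9.67 and 10.02 with siScr, a fall of 1.14 ± 0.13 (adjusted p = 0.00483). Its siMyolinc.2 arrays nearly coincided while the siScr arrays were further apart. Actc1, the cardiac actin that is also made in embryonic muscle, had 9.43 and 9.31 with siMyolinc.2 and 10.14 and 10.25 with siScr and fell by 0.83 ± 0.09 (adjusted p = 0.00392). Myl1 and Myl4, the light chains of fast and of embryonic and atrial muscle, fell by 0.90 ± 0.12 and 0.67 ± 0.08. The slow troponin I gene Tnni1 fell by 0.80 ± 0.12, the fast troponin T gene Tnnt3 by 0.72, and the embryonic myosin heavy chain Myh3 by 0.62. With 1 array left out the calls in this list numbered 8 without siScr array 1, 3 without siScr array 2, 1 without siMyolinc.2 array 1 and 0 without siMyolinc.2 array 2, where 11 were lower at an unadjusted p under 0.05. The list's median stayed between -0.21 and -0.17 in those refits.

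The promoters of Acta1 and Myl1 are shown because they belong to fallen sarcomere genes and hold the sequence CAGCTG, an E-box form that MyoD and myogenin bind. Each runs from 250 bases before to 30 bases after the transcription start in RefSeq's annotation of GRCm38.p6, written 5′ to 3′ on the gene's strand, with CAGCTG in capitals.
Acta1 (chr8:123894746-123895025, minus strand): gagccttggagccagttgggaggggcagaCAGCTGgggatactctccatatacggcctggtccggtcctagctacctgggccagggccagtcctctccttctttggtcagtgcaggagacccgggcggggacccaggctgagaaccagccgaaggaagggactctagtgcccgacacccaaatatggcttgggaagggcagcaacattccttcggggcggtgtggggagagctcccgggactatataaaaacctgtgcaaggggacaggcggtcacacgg
Myl1 (chr1:66945027-66945306, minus strand): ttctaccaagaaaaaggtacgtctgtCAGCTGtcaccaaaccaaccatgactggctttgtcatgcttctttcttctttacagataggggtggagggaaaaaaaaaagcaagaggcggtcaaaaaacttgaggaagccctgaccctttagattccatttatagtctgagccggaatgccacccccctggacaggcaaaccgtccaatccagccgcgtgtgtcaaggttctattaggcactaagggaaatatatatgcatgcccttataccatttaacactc
Searched on both strands of windows that reach 50 bases past the start, CAGCTG occurred in 4 of 8 windows of called filament genes (50%). It was in 13 of 31 windows of measured filament genes (41.9%) and in 16.3% of 32851 windows of all genes. By gene, 3 of 7 called and 11 of 26 measured filament genes had a match. A gene can have several windows, and those of Tnni1 overlap. A match describes these letters only.

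Of 16 measured myogenic regulators 1 was called, and it fell. Myog, encoding myogenin, had levels of 7.27 and 7.21 with siMyolinc.2 and 7.89 and 8.16 with siScr, a fall of 0.79 ± 0.10 (adjusted p = 0.00687), a call that was lost without either siMyolinc.2 array. Myf5, a myoblast determination factor, stood at 11.16 and 11.24 with siMyolinc.2 and at 10.87 and 10.95 with siScr, a change of 0.29 ± 0.07 that did not pass (adjusted p = 0.115). Myf5 arrays did not overlap and lay higher with siMyolinc.2, which was so for 17.1% of all genes. Mef2a, a MADS-box partner of the MyoD family, and Tcf12, an E protein that pairs with it, changed by 0.08 ± 0.07 and -0.08 ± 0.08 (adjusted p = 0.824 and 0.838).

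Among 17 genes of myoblast fusion and adhesion, 3 fell and 1 rose. Tmem8c, which encodes myomaker, the membrane protein required for myoblast fusion, had 8.87 and 8.88 with siMyolinc.2 and 9.68 and 10.05 with siScr, a fall of 0.99 ± 0.13 (adjusted p = 0.00712). Vcam1, an adhesion receptor, was at 8.97 and 9.01 with siMyolinc.2 and at 9.74 and 9.70 with siScr and fell by 0.73 ± 0.07. Cdon, a coreceptor that promotes myogenic differentiation, fell by 0.66 ± 0.08. Jam2, a junctional adhesion molecule, went the other way, with 9.05 and 8.98 with siMyolinc.2 and 8.25 and 8.05 with siScr, a rise of 0.87 ± 0.09. The 3 falls and 1 rise became 1 fall and 1 rise without siScr array 2 or without siMyolinc.2 array 2.

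In the sarcoplasmic reticulum, which stores and releases calcium for contraction, 2 of 18 measured genes fell and 1 rose. Trdn, encoding triadin of the calcium release complex, had 6.79 and 7.22 with siMyolinc.2 and 8.31 and 9.03 with siScr and fell by 1.66 ± 0.28 (adjusted p = 0.0242). Casq2, a calsequestrin that binds stored calcium, fell by 0.81 ± 0.12. Cacnb1, the beta subunit of the muscle calcium channel, rose by 0.46 ± 0.07. All 3 calls were lost without siScr array 2 and without either siMyolinc.2 array. Of 23 Z-disc, titin and M-band genes only Actn3, the alpha-actinin of fast fibres, was called, with a fall of 0.59 ± 0.07, and this call was lost in the same refits. Desmin, the muscle intermediate filament protein (Des), had 10.19 and 10.18 with siMyolinc.2 and 10.34 and 10.32 with siScr, a change of -0.15 ± 0.07 that did not pass (adjusted p = 0.532). The bright members Synpo2l and Myom2 lay higher, by 0.39 ± 0.10 and 0.20 ± 0.07, and did not pass either (adjusted p = 0.112 and 0.290). At an unadjusted p under 0.05 this list held 3 higher and 3 lower genes, and its median change was -0.02. No member of the neuromuscular junction list (10 measured) was called by limma (1 higher and 1 lower at an unadjusted p under 0.05). In 3 of the 10 both siMyolinc.2 arrays lay above both siScr arrays, against 17.1% of all genes. In 1 they lay below, against 22.6% of all genes. The brightest member of the list, Chrna1 of the muscle acetylcholine receptor, changed by 0.12 ± 0.07. Of the muscle metabolism list (21 measured), Ckm, the muscle creatine kinase, fell by 0.42 ± 0.07 and Pdk4, a kinase that restrains pyruvate dehydrogenase, fell by 0.44 ± 0.09, while Ppargc1a rose. The rise was called and both falls were not, whichever of the 4 arrays was left out.

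Mitotic genes were also lower. Of 35 measured genes of mitosis 9 fell and none rose (1 was higher at an unadjusted p under 0.05), and the median change was -0.39. Ccnb2, cyclin B2, which activates Cdk1 for entry into mitosis, had levels of 7.98 and 8.07 with siMyolinc.2 and 8.93 and 8.92 with siScr, a fall of 0.90 ± 0.09 (adjusted p = 0.00269). The gap between the groups was many times the spread of either pair. Ccna2, cyclin A2, fell by 0.71 ± 0.11, Plk1, a kinase of the mitotic spindle, by 0.71 ± 0.13, Cenpa, the histone variant of centromeres, by 0.70 ± 0.11, and Top2a, the topoisomerase that untangles sister chromatids, by 0.65 ± 0.10. Cdc20, Cenpf, Aurka and Tpx2, which act in the spindle checkpoint, at kinetochores and on spindle poles, fell by 0.54, 0.48, 0.44 and 0.41. Genes of S phase and DNA replication gave no call by limma among 31 measured (0 higher and 0 lower at an unadjusted p under 0.05, median change -0.02). Mcm2 of the replicative helicase changed by 0.07 ± 0.08 and Rrm1 of ribonucleotide reductase by -0.13 ± 0.08. Cdkn1a, the inhibitor p21 that holds myocytes out of the cycle, was at 12.80 and 12.79 with siMyolinc.2 and at 12.71 and 12.69 with siScr (adjusted p = 0.777), and limma called no gene of the 25 of cell cycle exit and p53 (2 higher and 2 lower at an unadjusted p under 0.05). Outside the lists and named after its value was seen, the cyclin D1 gene Ccnd1, which acts in G1, rose by 0.56 ± 0.11 (adjusted p = 0.0444). Without siScr array 2, or without either siMyolinc.2 array, 1 of the 35 mitotic genes was called, and their median lay between -0.40 and -0.28.

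The promoters of Ccnb2 and Cenpa are printed because both genes fell and both hold TTTGAA, a form of the cell cycle homology region through which mitotic genes are held silent in resting cells. They cover the same span as above in RefSeq's GRCm38.p6, with TTTGAA in capitals.
Ccnb2 (chr9:70421525-70421804, minus strand): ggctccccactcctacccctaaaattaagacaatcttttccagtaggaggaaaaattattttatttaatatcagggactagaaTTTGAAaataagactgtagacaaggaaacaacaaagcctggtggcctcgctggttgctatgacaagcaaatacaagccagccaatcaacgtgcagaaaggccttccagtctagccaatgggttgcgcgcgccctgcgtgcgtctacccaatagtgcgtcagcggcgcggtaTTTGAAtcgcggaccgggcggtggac
Cenpa (chr5:30666636-30666915, plus strand): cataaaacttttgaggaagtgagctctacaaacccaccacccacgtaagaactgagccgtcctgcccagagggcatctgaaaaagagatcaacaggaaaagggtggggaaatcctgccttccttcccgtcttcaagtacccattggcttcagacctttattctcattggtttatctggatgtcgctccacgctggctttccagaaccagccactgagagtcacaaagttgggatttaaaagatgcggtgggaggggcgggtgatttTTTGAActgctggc
TTTGAA, searched on both strands, was in all 7 windows found for called mitotic genes (100%), in 23 of 32 windows of measured mitotic genes (71.9%) and in 17.9% of all 32851 windows. The letters are thus common to the family, called or not.

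Cholesterol synthesis held the largest share of falls among the 34 lists. In this pathway acetyl-CoA is built through mevalonate and squalene into cholesterol, under the sterol-sensing factor SREBP2. Of 25 measured genes 12 fell and none rose (0 were higher at an unadjusted p under 0.05), and the median change was -0.46. Acat2, which joins acetyl-CoA units at the first step, had levels of 9.34 and 9.54 with siMyolinc.2 and 10.40 and 10.31 with siScr, a fall of 0.91 ± 0.10 (adjusted p = 0.00398). Hmgcs1, the next enzyme, stood at 10.15 and 10.20 with siMyolinc.2 and at 10.86 and 10.80 with siScr and fell by 0.65 ± 0.08. Mvk, Mvd and Idi1 of the mevalonate steps fell by 0.62, 0.61 and 0.54. Lss, which closes the sterol rings, had 9.32 and 9.52 with siMyolinc.2 and 10.22 and 10.29 with siScr and fell by 0.84 ± 0.08 (adjusted p = 0.0032). Of the later steps, Tm7sf2, Nsdhl and Hsd17b7 fell by 0.52, 0.54 and 0.64, and Dhcr7, the last enzyme, by 0.78 ± 0.10. Stard4, a carrier of cholesterol between membranes, fell by 0.61. The falls run along the whole pathway, from its first enzyme to its last. Fatty acid synthesis, driven by the related SREBP1, had no call by limma among 14 genes (0 higher and 7 lower at an unadjusted p under 0.05, median -0.19), and its bright members Scd2 and Scd1 changed by -0.37 ± 0.12 and -0.24 ± 0.07. The count of 12 was 7 without siScr array 1, 6 without siScr array 2, 3 without siMyolinc.2 array 1 and 2 without siMyolinc.2 array 2, and the median then lay between -0.54 and -0.45. The letters TCACNCCAC of a sterol regulatory element were in 1 of 12 windows of the called genes, that of Hmgcs1, against 1.24% of all windows.

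Interferon response genes were lower as well. Of 36 measured genes 6 fell and none rose (1 was higher at an unadjusted p under 0.05), with a median change of -0.22. Ifi44, an interferon-induced protein, had 8.98 and 9.12 with siMyolinc.2 and 10.01 and 10.21 with siScr and fell by 1.06 ± 0.12 (adjusted p = 0.00483). Oasl2, of the oligoadenylate synthetase family, fell by 0.81 ± 0.13. Irf7 and Stat2, transcription factors of the response, fell by 0.66 ± 0.13 and 0.62 ± 0.08, and Ddx58, the RNA sensor RIG-I, by 0.59 ± 0.09. The siScr cells had also received a double-stranded RNA, so the falls are relative to transfected controls. Without siScr array 2 limma called 0 of the 36 (12 lower at an unadjusted p under 0.05), without siMyolinc.2 array 1 also 0 (13), and without siMyolinc.2 array 2 it called 1. The 12 measured genes of the RNA interference machinery gave no call (1 lower at an unadjusted p under 0.05). Argonaute 2, listed as Eif2c2, had 10.01 and 9.92 with siMyolinc.2 and 9.91 and 10.01 with siScr.

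**Figure D2:**
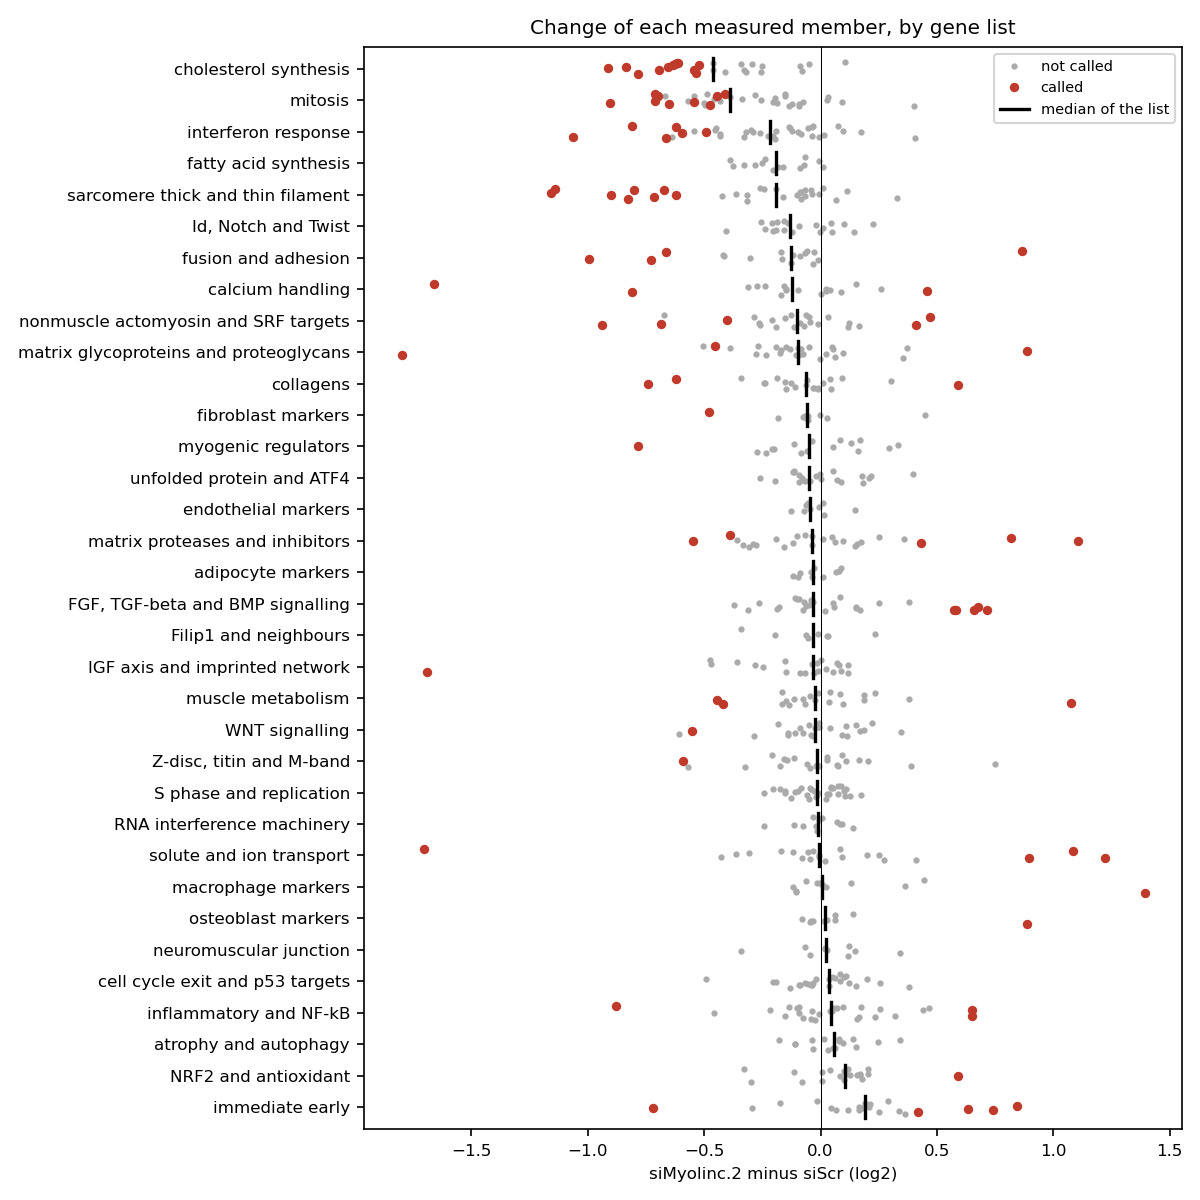
Each point is 1 measured member of a gene list, placed by its change (siMyolinc.2 minus siScr, log2), with called members in red and the median of the list as a black bar. Cholesterol synthesis (median -0.46), mitosis (-0.39), interferon response (-0.22) and the filament genes (-0.19) lie left of 0, and the immediate early genes (0.19) lie right of it.

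Among single genes, the largest rise was that of Havcr2, which encodes TIM-3, a receptor best known on immune cells. Its level was 7.76 and 7.65 with siMyolinc.2 and 6.34 and 6.27 with siScr, a rise of 1.39 ± 0.08 (adjusted p = 0.000348). Atp1b1, the beta-1 subunit of the sodium-potassium pump, had 11.00 and 10.87 with siMyolinc.2 and 9.85 and 9.57 with siScr, a rise of 1.22 ± 0.10 (adjusted p = 0.00176). Npr3, the clearance receptor for natriuretic peptides, had 9.69 and 9.65 with siMyolinc.2 and 8.60 and 8.48 with siScr, a rise of 1.13 ± 0.08 (adjusted p = 0.00108). In all 3 genes the gap between the groups was several times the spread of either pair. Ppargc1a, the coactivator PGC-1 alpha that raises mitochondrial biogenesis, stood at 9.42 and 9.42 with siMyolinc.2 and at 8.30 and 8.40 with siScr and rose by 1.07 ± 0.08. Cav1 and Cav2, the paired coat proteins of caveolae, rose together, Cav1 by 0.95 ± 0.07 and Cav2 by 1.04 ± 0.08. Cav1 had 10.69 and 10.68 with siMyolinc.2 and 9.79 and 9.69 with siScr, and Cav2 had 8.35 and 8.40 with siMyolinc.2 and 7.42 and 7.25 with siScr. Rragd, a Rag GTPase that signals amino acids to mTORC1, rose by 0.89 ± 0.08, and Cp, the copper oxidase ceruloplasmin, by 0.80 ± 0.07. Kcnj2, an inward rectifier potassium channel, rose by 0.89 ± 0.17 (adjusted p = 0.0424), with siScr arrays of 7.73 and 7.19 that were further apart than the siMyolinc.2 arrays. Car8, a carbonic anhydrase relative without catalytic activity, rose by 1.08 ± 0.11, and Cd24a, a small surface glycoprotein, by 1.12 ± 0.15. The small nucleolar RNAs Snora61 and Snora75, which guide pseudouridylation and lie within host genes, rose by 1.10 ± 0.12 and 1.07 ± 0.12. AI607873, given only this name in the files, rose by 1.05 ± 0.11.

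The largest fall given here was that of Postn, encoding periostin, a matricellular protein. Its level was 7.94 and 8.21 with siMyolinc.2 and 9.51 and 10.23 with siScr, a fall of 1.80 ± 0.20 (adjusted p = 0.00403), with siScr array 2 well above array 1. Scn7a, an atypical sodium channel, had 5.56 and 5.52 with siMyolinc.2 and 6.78 and 7.71 with siScr and fell by 1.70 ± 0.24 (adjusted p = 0.00959). H19, an imprinted long noncoding RNA that is abundant in muscle, had 8.10 and 8.21 with siMyolinc.2 and 9.38 and 10.31 with siScr and fell by 1.69 ± 0.23 (adjusted p = 0.00948). For all 3 the siScr pair spread widely and the siMyolinc.2 pair did not, and the lower siScr array still exceeded both siMyolinc.2 arrays. H19 was the only call among 22 genes of the IGF axis and the imprinted network, where Igfbp7, a secreted binding protein, changed by -0.47 ± 0.09 (adjusted p = 0.0526). Gulp1, an engulfment adaptor, fell by 1.24 ± 0.14, Fat4, a giant cadherin, by 1.08 ± 0.08, and Lrrc17, a secreted leucine-rich repeat protein, by 0.99 ± 0.17. Angpt1, the ligand of the endothelial receptor Tie2, fell by 0.93 ± 0.11, and Lphn3, an adhesion receptor of the latrophilin family, by 0.92 ± 0.13. F3, tissue factor, which starts blood coagulation, had 9.91 and 9.84 with siMyolinc.2 and 10.70 and 10.88 with siScr and fell by 0.91 ± 0.08 (adjusted p = 0.00211). The arrays of F3 were tight within both groups.

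**Figure D3:**
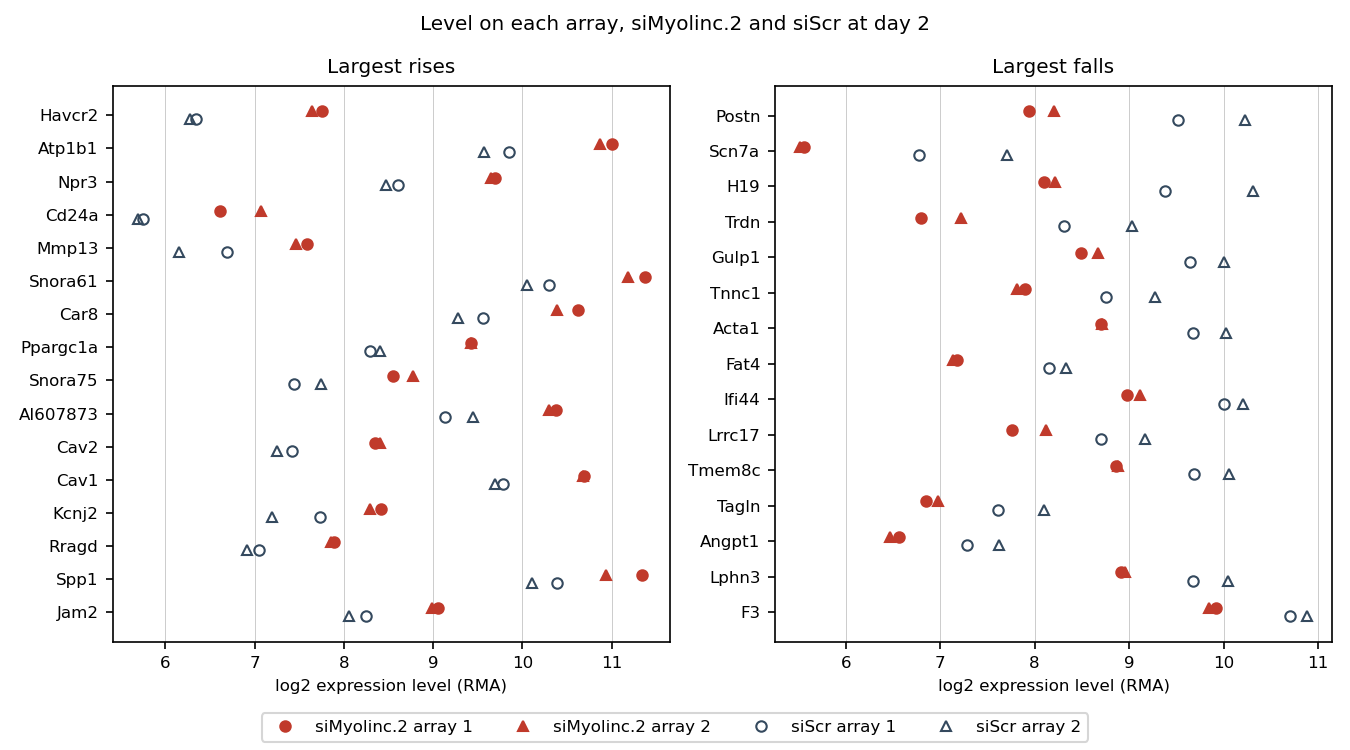
Log2 level of each gene on each array, for the 16 largest rises (left) and the 15 largest falls that are named (right), with siMyolinc.2 arrays filled red and siScr arrays open and dark, circles for array 1 and triangles for array 2. No gene shown has overlapping groups, and on the right siScr array 2 lies above siScr array 1 for every gene, with the widest gaps in Scn7a, H19, Trdn and Postn.

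Secreted signals of the FGF, TGF-beta and BMP families were called only as rises, 5 of 29 measured, although the median of the list was -0.03. Inhba, which encodes the subunit of activin A, had 11.75 and 11.52 with siMyolinc.2 and 10.91 and 10.93 with siScr and rose by 0.72 ± 0.09 (adjusted p = 0.00687). Grem1, a secreted BMP antagonist, rose by 0.67 ± 0.09, Fgf7, a growth factor for epithelia, by 0.66 ± 0.09, Tgfb2 by 0.58 ± 0.10, and Gdf15, a stress-induced hormone, by 0.57 ± 0.07. Gfral, the receptor of Gdf15, which is outside the list and was named after its value was seen, rose by 0.72 ± 0.07 (adjusted p = 0.00275). The calls in this list numbered 3 without siScr array 1, 0 without siScr array 2 (7 higher at an unadjusted p under 0.05), and 1 without either siMyolinc.2 array. Of 22 immediate early genes and related feedback genes, 4 rose and 1 fell, with a median of 0.19. The orphan nuclear receptor Nr4a1 had 9.14 and 9.15 with siMyolinc.2 and 8.33 and 8.27 with siScr and rose by 0.84 ± 0.07 (adjusted p = 0.00176). Etv4 and Dusp6, a transcription factor and a phosphatase induced by ERK signalling, rose by 0.74 ± 0.09 and 0.42 ± 0.08, and Ier3 by 0.63 ± 0.09. Egr1, a zinc finger factor of the same early class, went the other way with 7.92 and 7.81 with siMyolinc.2 and 8.47 and 8.69 with siScr, a fall of 0.72 ± 0.09 (adjusted p = 0.00631). Without siScr array 2 the early genes gave 2 rises and 1 fall, without siMyolinc.2 array 1 they gave 1 rise and 1 fall, and without siMyolinc.2 array 2 they gave 1 rise.

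Matrix genes moved in both directions. Of 22 collagens 2 fell and 1 rose. The type I chains Col1a1 and Col1a2 fell by 0.74 ± 0.08 and 0.62 ± 0.08, with Col1a1 at 8.69 and 8.61 with siMyolinc.2 and 9.46 and 9.32 with siScr. Col5a2, a chain of the type V collagen that assembles with type I, had 10.47 and 10.48 with siMyolinc.2 and 9.92 and 9.85 with siScr and rose by 0.59 ± 0.08 (adjusted p = 0.00735). The collagen calls were 0 higher and 1 lower without siScr array 2 or without siMyolinc.2 array 1, and 0 and 0 without siMyolinc.2 array 2 (2 higher and 4 lower at an unadjusted p under 0.05). Of 29 glycoproteins and proteoglycans, Postn and the proteoglycan decorin (Dcn) fell, Dcn by 0.46 ± 0.08, and osteopontin (Spp1) rose by 0.89 ± 0.15. Of 26 proteases and inhibitors 3 rose and 2 fell. Mmp13, collagenase 3, had 7.59 and 7.47 with siMyolinc.2 and 6.69 and 6.15 with siScr and rose by 1.11 ± 0.16 (adjusted p = 0.0112). The aminopeptidase Anpep rose by 0.82 ± 0.11 and the urokinase receptor Plaur by 0.43 ± 0.08, while Adamts4, an aggrecanase, fell by 0.55 ± 0.09 and Mmp11 by 0.39 ± 0.07. All 5 calls were lost without siScr array 2 and without siMyolinc.2 array 1, and 1 rise was left without siMyolinc.2 array 2. Of 24 genes of nonmuscle actomyosin and targets of SRF, 3 fell and 2 rose. The smooth muscle genes Tagln and Actg2 fell by 0.94 ± 0.18 and 0.69 ± 0.11 and the nonmuscle myosin Myh10 by 0.40 ± 0.07, while Ctgf and Ankrd1, targets of the mechanosensitive factors YAP and TAZ, rose by 0.47 ± 0.08 and 0.41 ± 0.07. All 5 of these calls were lost without siScr array 2, without either siMyolinc.2 array, and with only the arrays compared in the fit.

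Smaller counts were seen elsewhere. Of 28 inflammatory and NF-kB genes, the chemokine Ccl7 and the decoy receptor Tnfrsf23 rose by 0.65 ± 0.09 and 0.65 ± 0.10, and the chemokine Cxcl5 fell by 0.88 ± 0.14. Of 22 genes of solute and ion transport 3 rose (Atp1b1, Car8 and Kcnj2) and 1 fell (Scn7a). Of 20 NRF2 and antioxidant genes, the quinone reductase Nqo1 rose by 0.59 ± 0.09, and of 25 WNT genes Wisp1, a secreted matricellular target of the pathway, fell by 0.55 ± 0.07. The calls of the inflammatory, NRF2 and WNT lists were lost without siScr array 2 and without either siMyolinc.2 array. The lists of Id, Notch and Twist factors (20 measured), of the unfolded protein response and ATF4 (24), of atrophy and autophagy (16) and of Filip1 with its neighbours (8) held no gene called by limma. At an unadjusted p under 0.05 they held 5, 5, 2 and 3 genes in either direction. Hspa5, the chaperone BiP of the unfolded protein response, stood at 13.65 and 13.67 with siMyolinc.2 and at 13.62 and 13.70 with siScr.

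Among markers of the muscle lineage, Myf5, Des and Actc1 had log2 levels of 9.31 or above on every siMyolinc.2 and siScr array. Myod1, the gene of MyoD, had 7.07 and 7.14 with siMyolinc.2 and 7.37 and 7.26 with siScr, and Myl1 had 6.91 and 7.07 with siMyolinc.2 and 7.85 and 7.93 with siScr. Levels of different probes are not compared here. Of 13 macrophage markers Havcr2 was the 1 call. The mean level of the list was 6.06 and 6.01 with siMyolinc.2, against 5.90 and 5.88 with siScr. Its median change was only 0.006, and 7 of the 13 members had a change above 0. Tyrobp, a signalling adaptor of myeloid cells, had 6.37 and 6.48 with siMyolinc.2 and 6.48 and 6.57 with siScr, and Cd68 and Cd14 changed by 0.36 ± 0.10 and 0.44 ± 0.11 without passing (adjusted p = 0.143 and 0.0991). The defining markers Ptprc, Lyz2 and Aif1 lay between 5.04 and 5.65 on all 4 arrays. Of 10 osteoblast markers Spp1 was the 1 call, which was lost without siScr array 2 and without siMyolinc.2 array 1, while Runx2, the lineage factor, changed by 0.14 ± 0.10 and Alpl by 0.06 ± 0.08. Of 10 fibroblast markers the PDGF receptor gene Pdgfrb fell by 0.48 ± 0.07, a call that was lost without siScr array 2 and without either siMyolinc.2 array. No adipocyte marker (10 measured) or endothelial marker (9) was called by limma, and 0 and 0 of them passed an unadjusted p under 0.05. In bulk RNA, fewer cells of a type and less RNA per cell cannot be told apart.

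The same genes can be set beside the other siRNAs against Myolinc, although all 3 changes are taken against the same siScr arrays and so share their error. By the same rule siMyolinc.1 gave 2276 called genes (11.3%) and siMyolinc.3 gave 1839 (9.11%). For the 145 genes that rose with siMyolinc.2, the median change was 0.54 with siMyolinc.1 and 0.48 with siMyolinc.3, and for the 127 that fell it was -0.97 and -0.80. The sarcomere list had a median of -0.19 with siMyolinc.2, -0.25 with siMyolinc.1 and -0.17 with siMyolinc.3. Mitosis stood at -0.39 with siMyolinc.2, against -0.80 and -0.79 with siMyolinc.1 and siMyolinc.3, and cholesterol synthesis at -0.46, against -0.90 and -0.81.

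Direct contrasts between siRNAs leave siScr out. Against siMyolinc.1, 959 genes were called (4.75%), of which 659 genes were higher with siMyolinc.2 (3.26%) and 300 were lower (1.49%). Against siMyolinc.3, 859 were called (4.25%), of which 542 were higher (2.68%) and 317 lower (1.57%), and 423 genes were above and 201 below in both contrasts. Against the mean of siMyolinc.1 and siMyolinc.3, 846 genes were higher with siMyolinc.2 (4.19%) and 457 were lower (2.26%), 1303 in all (6.45%). The counts against siMyolinc.1 and siMyolinc.3 were lowest without siMyolinc.2 array 2, at 260 and 192. The count against their mean was 392 without siMyolinc.2 array 1, 326 without siMyolinc.2 array 2, and 757 and 756 without siMyolinc.1 array 1 and array 2. Among the list members, 18 of 25 cholesterol genes, 20 of 35 mitotic genes, 11 of 31 S phase genes and 11 of 29 filament genes were higher with siMyolinc.2 than with the mean of the other siRNAs, and none of these lists had a member that was lower. Of the 127 genes that fell with siMyolinc.2, 56 were higher than with the other siRNAs and 7 were lower. Of the 145 that rose, 46 were higher and 31 were lower. These genes were chosen with the same siMyolinc.2 arrays that enter this contrast, so the error is shared and no overlap is read.

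Desmin had the largest such difference among the filament and Z-disc genes. Des was at 10.19 and 10.18 with siMyolinc.2, against 8.29 and 8.38 with siMyolinc.1 and 8.52 and 8.50 with siMyolinc.3, a difference from their mean of 1.76 ± 0.06 (adjusted p = 2.59e-06). Its change against siScr was -0.15 with siMyolinc.2, -2.00 with siMyolinc.1 and -1.82 with siMyolinc.3. Actc1 and Myl4 fell with siMyolinc.2 but lay above the other siRNAs by 1.31 ± 0.08 and 1.37 ± 0.07. Igfbp2, a binding protein for insulin-like growth factors, and Gpr56, an adhesion receptor of myoblasts, differed by 2.09 ± 0.12 and 1.94 ± 0.07, and neither was called against siScr with siMyolinc.2. Cd34 and Ly6a, surface markers of progenitor and mesenchymal cells, were higher by 1.58 ± 0.09 and 1.43 ± 0.08. Sirpa, a signal regulatory receptor, was higher by 1.47 ± 0.07, and Scd2 by 1.13 ± 0.10.

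In the other direction, Havcr2 rose with all 3 siRNAs, by 1.39 with siMyolinc.2, against 3.42 with siMyolinc.1 and 2.86 with siMyolinc.3. The difference, siMyolinc.2 minus the mean of the other siRNAs, was -1.75 ± 0.07 (adjusted p = 4.15e-06). Mmp13 and Spp1 also rose with all 3 and were lower with siMyolinc.2 than with the other siRNAs, with differences of -1.52 ± 0.14 and -1.31 ± 0.13. Slpi, a secreted protease inhibitor, Angptl4, an inhibitor of lipoprotein lipase, and Tnfrsf23 differed by -1.38 ± 0.08, -1.29 ± 0.12 and -1.22 ± 0.09. Atp6v0d2, a subunit of the vacuolar proton pump, differed by -1.13 ± 0.08, and Ndst3, an enzyme of heparan sulfate, by -1.24 ± 0.09.

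A further set of genes rose with siMyolinc.2 against siScr and were also higher than with the other siRNAs. Both contrasts use the same siMyolinc.2 arrays. Npr3 changed by 1.13 with siMyolinc.2, -0.14 with siMyolinc.1 and -0.10 with siMyolinc.3, and its difference from their mean was 1.25 ± 0.07 (adjusted p = 4.65e-05). Inhba, Tgfb2, Col5a2 and Ctgf were above the mean of the other siRNAs by 0.70 ± 0.08, 0.84 ± 0.09, 0.80 ± 0.07 and 0.60 ± 0.07. Of the genes that fell, F3 and Vcam1 lay below the other siRNAs, with differences of -0.52 ± 0.07 and -0.31 ± 0.06 (adjusted p = 0.00292 and 0.0126). For other genes no difference between the siRNAs was called. Atp1b1 changed by 1.22 with siMyolinc.2, 1.35 with siMyolinc.1 and 1.33 with siMyolinc.3, with a difference of -0.12 ± 0.09 that did not pass (adjusted p = 0.555). The differences for Cav2 and Rragd were 0.01 ± 0.07 and -0.07 ± 0.07, and that for Fat4 was -0.20 ± 0.07 (adjusted p = 0.958, 0.657 and 0.157).

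**Figure D4:**
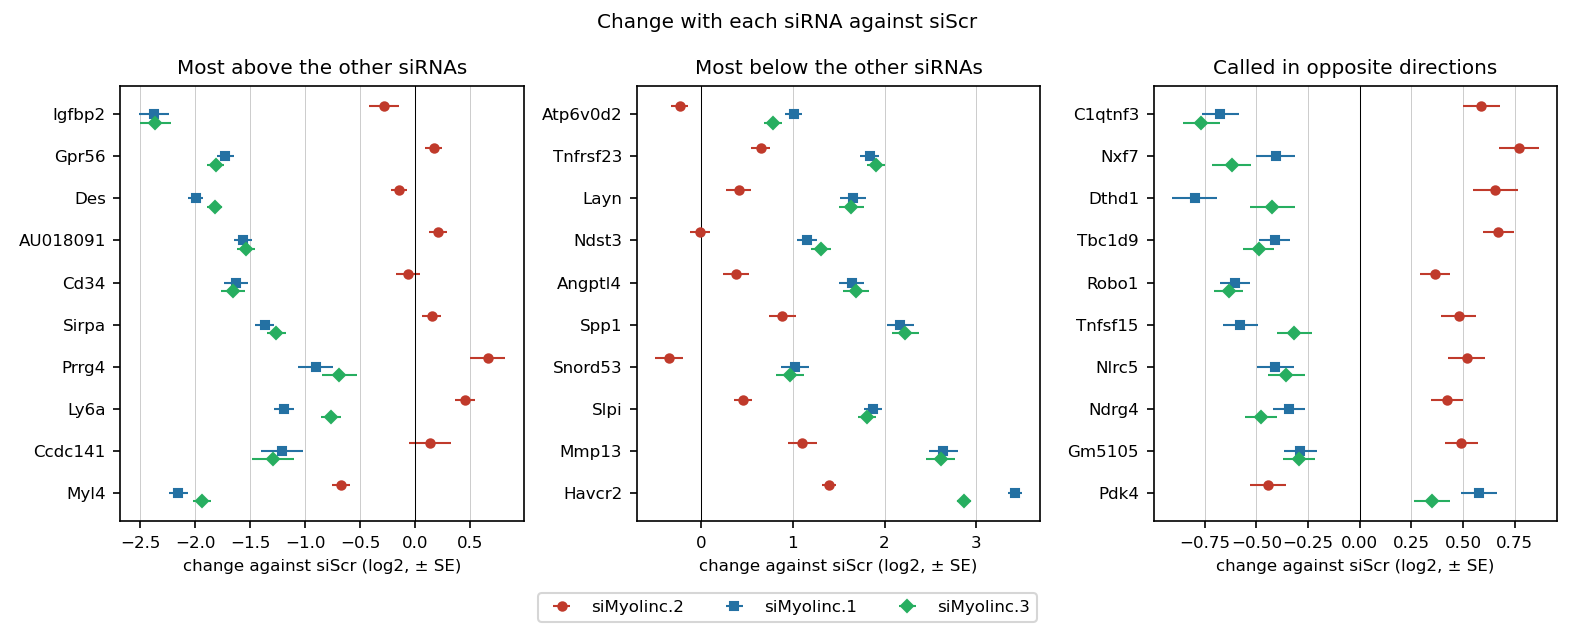
Change against siScr (log2, points with SE bars, 2 arrays per group) with siMyolinc.2 (red circles), siMyolinc.1 (blue squares) and siMyolinc.3 (green diamonds), for the 10 genes most above the mean of the other siRNAs with siMyolinc.2, the 10 most below it, and the 10 called in opposite directions. All changes use the same siScr arrays, and siMyolinc.2 stands apart from the other siRNAs in each panel, as the choice of genes requires.

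To describe what the called genes do when untreated cells differentiate, their change in untransfected cells at Day_2 against Undiff was taken from the second sheet. The Day_2 and Undiff arrays of this contrast take no part in the comparison of siMyolinc.2 with siScr. In that sheet 6043 genes were called (29.9%), of which 2982 were higher at Day_2 (14.8%) and 3061 were lower (15.2%). Of the 122 fallen genes measured by the same probe cluster in both sheets, 83 (68%) were higher at Day_2 than in Undiff and 19 (15.6%) were lower, with a median change of 0.56. Of the 142 risen genes so measured, 27 (19%) were higher at Day_2 and 56 (39.4%) were lower, with a median of -0.10. Among all 19487 such genes, 14.7% were higher and 15% were lower at Day_2, and among the genes above the median level 24.9% and 24.7%. Seen from the other side, 2.89% of the genes that were higher at Day_2 fell with siMyolinc.2 and 0.94% rose, while 0.649% of those that were lower at Day_2 fell and 1.91% rose. With siScr array 2 left out, 20 of 27 fallen genes (74.1%) were higher at Day_2 and 1 was lower, and without siMyolinc.2 array 2 the counts were 9 and 1 of 11.

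Single genes show the range. Scn7a was at 11.25 ± 0.02 at Day_2 and at 5.45 ± 0.11 in Undiff (mean ± SD, n = 2), a change of 5.80. Myl1, Tmem8c and Acta1 changed by 4.77, 3.25 and 2.92 at Day_2, and each fell with siMyolinc.2. Fat4, Gulp1 and Postn, which are not sarcomeric, changed by 1.53, 2.14 and 1.28. Mitotic genes ran against this pattern: all 35 measured were lower at Day_2 than in Undiff, Ccnb2 by a change of -0.86, and 9 of them fell with siMyolinc.2 as well. Of the cholesterol genes 14 of 25 were higher at Day_2, Hmgcs1 by 0.57, and of the interferon genes 17 of 36, Ifi44 by 1.13. These list counts were not limited to genes read by the same probe cluster in both sheets, and the mitotic gene Top2a was not. H19 changed by -0.21 at Day_2, which did not pass. Among the rises, Havcr2 and Cav2 changed by -0.91 and -0.83 at Day_2, opposite to their direction with siMyolinc.2, while Ppargc1a and Cp changed by 1.50 and 2.27, in the same direction.

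**Figure D5:**
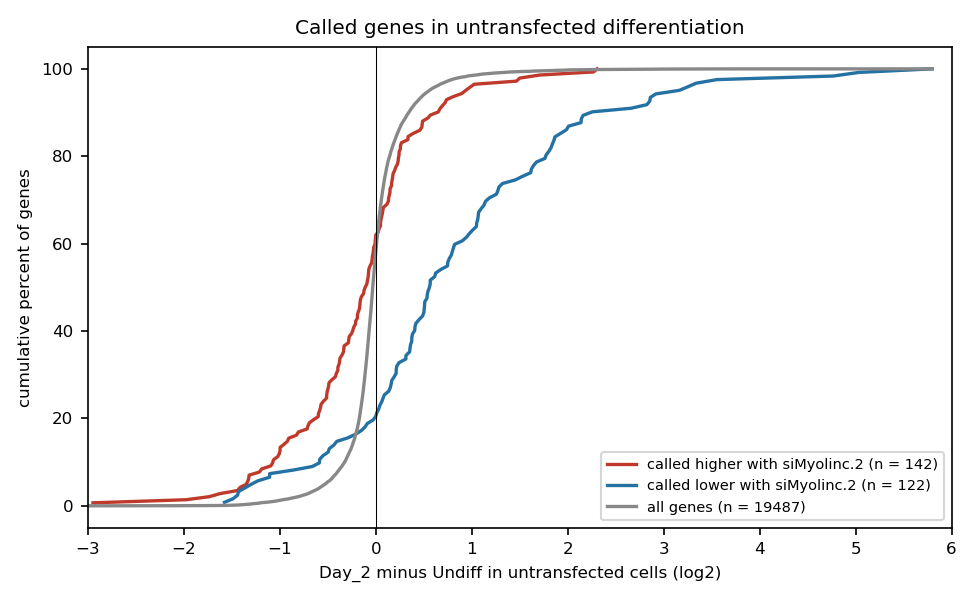
Cumulative percent of genes against their change in untransfected cells, Day_2 minus Undiff in log2, for the 142 genes called higher with siMyolinc.2 (red), the 122 called lower (blue) and all 19487 genes (grey). The blue curve lies to the right, with a median of 0.56, and the red curve lies to the left of the grey one below 0, with a median of -0.10.

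Set against untransfected cells of the same day, the siMyolinc.2 cells differed far more widely, with 2888 genes higher than in Day_2 (14.3%) and 3085 lower (15.3%), 29.6% of all genes in sum. Transfection and the siRNA cannot be told apart in that contrast, and it uses the same siMyolinc.2 hybridisations as the comparison with siScr, so the values are only given side by side. Postn, H19 and Myl1 differed from Day_2 by -4.28, -3.97 and -3.55, where the changes against siScr were -1.80, -1.69 and -0.90. Havcr2 differed by 1.39 from Day_2 and by 1.39 from siScr. Ifi44 was higher than in Day_2, by 1.74, and lower than with siScr, at -1.06. Spp1 ran the other way, at -0.90 against Day_2 and 0.89 against siScr. Atp1b1 and Cav1, raised against siScr, differed from Day_2 by 0.09 and -0.09, neither of which passed.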

How the data were processed

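RNA of C2C12 cells was hybridised as biotin-labelled cRNA to Affymetrix arrays. The values used are log2 expression levels that the authors deposited in 2 sheets of 20193 genes, 1 transcript cluster per gene; RMA and limma are named in the submitters' processing notes, with no version, and the genome build is not given in the sources used here. In the second sheet 23 cells of a siMyolinc.3 array that held dates were set to missing, and 23 date-like gene symbols were replaced through their gene names. The siMyolinc.2 arrays of both sheets are the same hybridisations (r of deviations 0.946 and 0.949 for the same label, at most 0.289 for another), so levels were compared within a sheet. The p-values and differences that the authors deposited in the same sheets were not used.

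Each sheet was fitted with limma 3.58.1 (R 4.3.3), 1 coefficient per group, eBayes, two-sided, Benjamini-Hochberg over all genes. The 8 arrays of the scramble sheet left 4 residual degrees of freedom and 5.12 prior ones. The test was checked on simulated data. Array number limits the precision. Deviations of replicate 1 from its group mean correlated between groups with r of -0.113 to 0.221. The highest value was that of siScr with siMyolinc.2. The labels do not say whether replicate numbers pair the arrays. Genes named are the 16 largest rises and falls, the 10 most above and below the other siRNAs, and the 10 smallest adjusted p. Genes of opposite direction and, in each list, the 5 called members that changed most are named, with bright members added where few were called. Further called members of some lists, such as Tnnt3, Cdc20 and Mvk, and some cell type markers are named beyond this rule. Genes from outside the lists that were named after their values were seen are marked. The members and the 34 gene lists (701 genes measured) were chosen with earlier results of these data known. Some genes picked by this rule are left out, among them bright members of lists with few calls. Of the symbols, 17433 were current in RefSeq (GRCm38.p6), 2024 were matched through older names and 736 were not matched. Alternatives tried were array centring, a further quantile normalization, leaving out dim genes, a trended robust prior, array weights, a replicate block, the series matrix, only the arrays compared, and leaving out each array.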

Additional observations from a re-analysis of the deposited data

Results flagged for a closer look

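Called genes with siMyolinc.2 that were called in the opposite direction with siMyolinc.1 or siMyolinc.3 numbered 10. Each also differed between the siRNAs by limma's direct contrast, which the choice by opposite calls all but requires. Arrays that do not overlap with siScr were shared by all called genes, so they add nothing for these. Differences below are siMyolinc.2 minus the mean of siMyolinc.1 and siMyolinc.3, log2 ± SE. The other siRNAs' changes share the siScr arrays with that of siMyolinc.2. Pdk4 fell by 0.44 with siMyolinc.2, against changes of 0.58 with siMyolinc.1 and 0.35 with siMyolinc.3, a difference of -0.91 ± 0.08 (adjusted p = 0.000247). Its fall against siScr (adjusted p = 0.0493) was called in 2 of 16 alternatives. The other 9 rose with siMyolinc.2. C1qtnf3, a secreted protein of the C1q and TNF family, rose by 0.59 and differed by 1.31 ± 0.08. Nxf7, of the nuclear RNA export factor family, rose by 0.77 and differed by 1.28 ± 0.08, and Dthd1 by 1.27 ± 0.09. Tbc1d9, a protein with a Rab GTPase-activating domain, rose by 0.67 and differed by 1.12 ± 0.07. Robo1, a receptor for Slit guidance proteins, rose by 0.36 and differed by 0.98 ± 0.06. Tnfsf15, a TNF family cytokine, rose by 0.48 and differed by 0.93 ± 0.07. Nlrc5, a regulator of MHC class I genes, rose by 0.52 and differed by 0.90 ± 0.08. Ndrg4 and Gm5105 differed by 0.83 ± 0.07 and 0.78 ± 0.07. The arrays of siMyolinc.2 and siScr did not overlap for any of these 10 genes, but the changes of Pdk4, C1qtnf3, Gm5105, Nlrc5, Tnfsf15 and Robo1 against siScr were called in 0 of the 4 refits without 1 of the arrays compared.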

How the results depend on the processing

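Calls of siMyolinc.2 against siScr numbered 272, and 518 with dim genes left out, 513 with an intensity trend and robust prior, 21 over all clusters of the series matrix and 142 with only the arrays compared. With 1 array left out they ranged from 36 to 258. The calls against siMyolinc.1 numbered 959, and 1833 with array weights, 450 in the series matrix and 260 to 1020 with 1 array left out. Against siMyolinc.3 there were 859, and 1318 without dim genes, 1348 with the trend and robust prior, 336 in the series matrix, 436 with only the arrays compared and 192 to 864 with 1 array left out. Against the mean of both there were 1303, and 794 in the series matrix and 326 to 1375 with 1 array left out. Day_2 against Undiff gave 6043, and 4432 to 5040 with 1 array left out, and siMyolinc.2 against Day_2 gave 5973, and 4508 to 4755. The cause of these shifts was not tested. The series matrix holds more features, and the refits use fewer arrays. Pairing the arrays by replicate number as a block gave 254, 893, 815 and 1262 calls in the scramble sheet and 5904 and 5813 in the second. Whether these numbers pair the arrays is not in the labels. Of 96 called genes chosen by the naming rule, 12 stayed called in the series matrix, 70 with only the arrays compared, 89 under the block, 76 without siScr array 1, 38 without siScr array 2, and 33 and 26 without siMyolinc.2 array 1 and array 2, with no reversal. For the refits without 1 array and for the series matrix, the lack of a reversal was fixed in advance. Of 170 list medians under alternatives, 111 moved by less than the replicate spread and 20 changed sign.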

Other observations

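Some called genes belong to none of the lists described and were named after their values were seen. Among genes of guidance and adhesion, for which no list was tested, some fell and some rose. The falls include the protocadherin Pcdh9 at -0.83, the ephrin ligand Efnb2 at -0.57, the ephrin receptors Epha7 and Ephb6 at -0.57 and -0.58, and the neuropilin Nrp1 at -0.43, all siMyolinc.2 minus siScr in log2. The rises include the adhesion molecule L1cam at 0.62, the Slit receptor Robo1 at 0.36 and the semaphorin Sema6d at 0.36. Pcdh9 and Nrp1 also lay below the mean of the other siRNAs, with differences of -0.43 ± 0.08 and -0.47 ± 0.07. Other rises were those of the laminin-binding integrin Itga6 (0.73), the hyaluronan synthase Has2 (0.54), the alarmin Il33 (0.71), the EGF receptor ligands Ereg (0.53) and Hbegf (0.41), and the ERK phosphatase Dusp4 (0.39). The small nucleolar RNAs Snora20 and Rnu3a were called at 0.83 and 0.85. Of the genes in this paragraph, only Itga6 stayed called over the series matrix. Epha7, Nrp1, Robo1, Sema6d, Il33, Ereg, Hbegf, Dusp4 and Rnu3a were not called with only the arrays compared in the fit.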
